A study of Mus musculus with 4 samples.

Results

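The 9 genes described here encode inflammatory cytokines (Il1b, Il1a, Tnf and Il18), the inhibitor of IL-1 signalling (Il1rn), neutrophil-attracting CXC chemokines (Cxcl1, Cxcl2 and Cxcl3) and Nlrp3, the sensor of the inflammasome that processes IL-1β and IL-18. They were chosen by name and function, with earlier results of these data known, and all 9 are among the 32285 genes of the count matrices. Macrophages were sorted from perigonadal white fat (gWAT, a visceral fat depot of the mouse) as live CD45+ Lin- CD11b+ CD64+ cells and measured with 10x Chromium 3′ single-cell RNA-seq. The 4 groups were control (WT) mice on a high-fat diet (HFD), BLIMP1 conditional knockout (CKO) mice on HFD, WT mice on a normal diet and CKO mice on a normal diet, each with 1 library. BLIMP1 is a transcriptional repressor encoded by Prdm1, and the series asks how its loss bears on fat macrophages under either diet. The sources used here do not give the Cre driver, the deleted exons, the animals' age or how many animals a library pools. The whole CD64+ gate was sequenced, so each library is a mixture of macrophage subsets, and values over all its cells move with that mixture.

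Macrophages make IL-1β and IL-18 as inactive precursors, which caspase-1 cleaves once an inflammasome such as that of NLRP3 has assembled. IL-1α is active without that step, and the IL-1 receptor antagonist, the product of Il1rn, occupies the receptor that IL-1α and IL-1β use. CXCL1, CXCL2 and CXCL3 bind CXCR2 on neutrophils, and their genes, like those of Tnf and Il1b, are known as early NF-kappaB targets that respond within hours, also to the handling of tissue. In obese fat, TNF and IL-1β from macrophages are known for their link to insulin resistance.

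The promoters of the 3 chemokine genes are shown because their transcripts were detected in the same cells, as given below. That of Il1b is shown beside them because Il1b differed from Cxcl1 and Cxcl2 across diets and cell sets. Cxcl3 followed neither pattern in both genotypes. Under HFD it was lower than under normal diet in WT, as Il1b was, and higher in CKO. The 250 bases before the annotated start are from RefSeq (GRCm38.p6), written 5′ to 3′ on the gene's own strand, and capitals mark a match to the NF-kappaB consensus. Cxcl1 lies at chr5:90890995-90891244 (plus strand), Cxcl2 at chr5:90903649-90903898 (plus), Cxcl3 at chr5:90785851-90786100 (plus) and Il1b at chr2:129371140-129371389 (minus).
Cxcl1: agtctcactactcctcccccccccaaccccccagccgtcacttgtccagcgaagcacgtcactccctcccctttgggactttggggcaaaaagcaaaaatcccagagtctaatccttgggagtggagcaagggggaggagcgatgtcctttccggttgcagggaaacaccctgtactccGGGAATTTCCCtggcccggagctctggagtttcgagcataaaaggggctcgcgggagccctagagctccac
Cxcl2: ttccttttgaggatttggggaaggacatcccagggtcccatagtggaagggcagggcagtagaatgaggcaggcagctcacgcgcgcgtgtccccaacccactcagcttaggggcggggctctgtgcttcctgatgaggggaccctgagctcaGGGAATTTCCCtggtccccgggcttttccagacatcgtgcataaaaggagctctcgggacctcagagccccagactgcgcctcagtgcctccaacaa
Cxcl3: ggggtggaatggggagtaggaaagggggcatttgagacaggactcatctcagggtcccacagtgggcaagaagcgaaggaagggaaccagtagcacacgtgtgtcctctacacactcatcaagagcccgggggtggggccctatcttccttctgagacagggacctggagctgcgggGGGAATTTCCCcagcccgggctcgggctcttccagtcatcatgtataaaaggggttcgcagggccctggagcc
Il1b: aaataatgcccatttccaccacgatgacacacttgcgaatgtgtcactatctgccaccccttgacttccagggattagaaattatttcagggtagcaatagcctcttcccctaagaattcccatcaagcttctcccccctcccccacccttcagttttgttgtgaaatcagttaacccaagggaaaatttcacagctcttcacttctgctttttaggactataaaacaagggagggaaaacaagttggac
The same 11 letters, GGGAATTTCCC, stand in all 3 chemokine promoters, and they match on both strands as 2 overlapping hits. They begin 71 bases before the start of Cxcl1, 97 before that of Cxcl2 and 73 before that of Cxcl3. Over aligned positions, Cxcl2 and Cxcl3 were 72.6% identical, Cxcl1 and Cxcl3 68.8%, and Cxcl1 and Cxcl2 64.2%, against 53% to 58.7% for each of them with Il1b. Among 32851 promoter windows of the same length, 3.9% held the consensus, and among the members it stood in 4 of 9, the other being the second of 2 Nlrp3 promoters. The AP-1 letters TGANTCA, found in 6.75% of windows, stood in the promoters of Il1a and Il1rn. AGNGAAAG, a core of the BLIMP1 motif found in 7.3% of windows, stood in 0 of the 9. All 9 members had a promoter entry, 7 of them a single one. A match is a description of letters and not of binding. Cxcl1 and Cxcl2 lie 10.8 kb apart, Cxcl3 lies 102 kb before Cxcl1 on the same strand, and Il1a and Il1b lie 54.6 kb apart on chromosome 2.

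The libraries differ in depth, and WT HFD stands apart. Values for the 4 libraries are given in the order WT HFD, CKO HFD, WT normal diet, CKO normal diet, unless named otherwise. After filtering, 4650, 8731, 3705 and 4302 cells were kept, with medians of 14492.5, 3923, 4092 and 3939 UMIs (counted molecules) per cell. Levels are CPM, the UMIs of a gene per 1000000 UMIs of all kept cells of a library, with 95% exact Poisson intervals. Shares are the percentage of cells with at least 1 UMI after each cell was thinned to 2000 UMIs, which left out 67, 1076, 675 and 820 shallower cells, and carry exact Clopper-Pearson intervals. These intervals cover counting error only. With 1 library a group there is no replicate check within a group, groups were not tested against each other, and group and library preparation cannot be told apart. All 8 macrophage markers stood at 10 CPM or more in every library. Prdm1, read through 3′ tags that may lie outside the deleted part and then check nothing, stood at 21.9, 22.9, 22.9 and 28.4 CPM. Pairs of libraries shared 2 to 9 cell barcodes. Neutrophils themselves were few: the 11 neutrophil markers summed to 25.1, 29.8, 106 and 79.4 CPM, with Cxcr2 at 0.107, 0.376, 0.505 and 0.693 CPM and S100a9 at 0.0134, 0, 9.09 and 11 CPM. Fibroblast markers summed to 439, 167, 20 and 20.8 CPM, and 15 genes known to respond to tissue dissociation to 12719, 14965, 15438 and 15342 CPM. The part of these in the levels below was not tested.

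Il1b, the transcript of the IL-1β precursor, was higher under normal diet than under HFD in either genotype. Its level was 307 (303 to 311), 390 (384 to 396), 852 (840 to 865) and 607 (598 to 617) CPM. Every normal-diet value was above every HFD value, and no 2 of the 4 intervals overlapped. At equal depth 24.3%, 24.7%, 46.5% and 35.6% of cells held an Il1b UMI, against 38.2%, 31.3%, 52.7% and 42.2% without thinning. Of cells with at least 3 fibroblast markers, in which the gene should be absent, 0 of 47 held an Il1b UMI in WT HFD and 2 of 53 (3.77%) in CKO HFD, at median depths of 16118 and 3687 UMIs. Some markers of other cell types moved with diet too. The 8 monocyte markers, Ccr2 among them, summed to 1141, 1303, 2225 and 1920 CPM. Of these, Nr4a1, which is also among the dissociation genes, stood at 269, 387, 976 and 836 CPM. Treml4 stood at 3.17, 3.41, 30 and 21.7 CPM. Chil3 went the other way, at 22.6, 72.2, 10.4 and 8.77 CPM, and Ly6c2 followed neither order, at 5.1, 22.4, 10.3 and 7.67 CPM. The 8 macrophage markers summed to 9303, 10082, 4564 and 5206 CPM. The 6 type 2 dendritic markers summed to 1008, 1191, 1112 and 1248 CPM and were split. Cd209a stood at 21.9, 22.6, 140 and 141, Flt3 at 3.17, 2.8, 25.4 and 19.7 and Ccr7 at 1.85, 2, 30.3 and 17.9 CPM. Clec10a, at 209, 217, 403 and 407 CPM, was higher under normal diet too. Mgl2, at 643, 877, 444 and 596 CPM, was lower there, and Ciita, at 129, 69.6, 69.9 and 66.1 CPM, was not higher in both genotypes. The part of these cells in the levels of Il1b and Nlrp3 was not tested, and levels within marker-defined cell sets are given below. Il1a, the precursor of IL-1α, was rare, at 6.97, 6.77, 9.5 and 7.06 CPM and in 0.938%, 0.849%, 1.68% and 0.862% of cells. Il1rn stood at 61.9 (60.2 to 63.7), 71.3 (68.8 to 73.9), 77.2 (73.5 to 80.9) and 56.3 (53.4 to 59.3) CPM. The CKO normal-diet library was the lowest of the 4 for Il1rn, also as a share of cells (8.42%, 8.26%, 7.62% and 5.49%).

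Tnf and Il18 varied little between the libraries. Tnf, a cytokine that macrophages release from their surface, stood at 91.4 (89.3 to 93.6), 94.7 (91.8 to 97.7), 91.8 (87.8 to 95.9) and 78.4 (74.9 to 81.9) CPM. The first 3 intervals overlapped, and CKO normal diet lay below them. Shares for Tnf were 13.1%, 13.7%, 14.4% and 11.9%. Il18, which many macrophages transcribe without stimulation, stood at 25.3, 25.2, 23.4 and 25.3 CPM with overlapping intervals (21.4 to 27.4 over all 4), and in 4.8%, 5%, 5.08% and 4.91% of cells. The background share of Il18 in fibroblast-marker cells was 2.13% in WT HFD and 5.66% in CKO HFD (1 of 47 and 3 of 53 cells). Its share in CKO HFD was thus not above background at this depth. In WT HFD 1 of 47 cells is too few to place its share above background. The normal-diet libraries held only 2 and 4 fibroblast-marker cells, too few for a background. Nlrp3 stood at 96.2 (94 to 98.5), 59.5 (57.2 to 61.8), 163 (158 to 169) and 115 (111 to 120) CPM, with shares of 14.7%, 9.61%, 24.6% and 17.7% and none in 47 and 53 fibroblast-marker cells. No 2 of its intervals overlapped, and under either diet CKO was the lower.

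Of the chemokines, Cxcl1 and Cxcl2 were higher under HFD, and Cxcl3 stood in few cells. Cxcl1 stood at 145 (142 to 148), 127 (123 to 130), 69.2 (65.7 to 72.7) and 72.8 (69.5 to 76.3) CPM. The HFD values lay above both normal-diet values, whose intervals overlapped. Its shares were 12.9%, 11.6%, 7.36% and 7.84%, beside 10.6% and 9.43% of fibroblast-marker cells in the HFD libraries, so at this depth the share of cells does not separate macrophage Cxcl1 from that of other cells, which also make it. Cxcl2 stood at 1910 (1900 to 1920), 2578 (2563 to 2594), 1443 (1427 to 1459) and 1281 (1267 to 1295) CPM, highest in CKO HFD. It was found in 61.6%, 63.9%, 48.2% and 45.7% of cells, against 6.38% and 7.55% of fibroblast-marker cells. The median Cxcl2-positive cell held 5, 6, 4 and 3 of its 2000 UMIs as Cxcl2, and the highest cell 36, 60, 38 and 51. Cxcl3 stood at 2.7 (2.34 to 3.1), 16 (14.8 to 17.2), 12.7 (11.3 to 14.3) and 4.45 (3.65 to 5.36) CPM, from 201, 680, 277 and 109 UMIs.

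**Figure D1:**
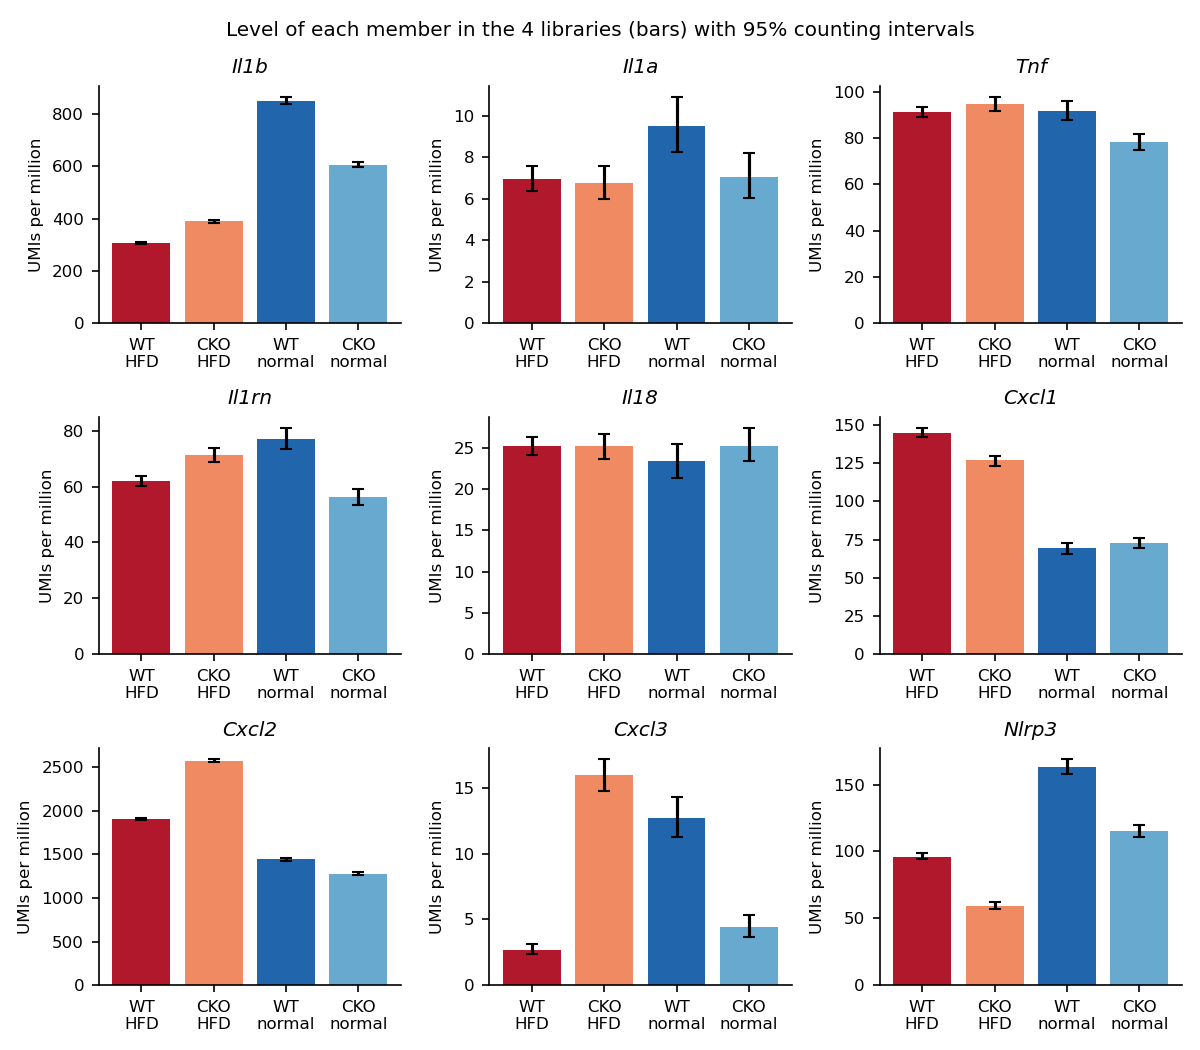
Level of each member in CPM, a panel per gene with its own axis from 0, in the 4 libraries. Bars are the values and whiskers 95% exact Poisson intervals for counting error. Il1b and Nlrp3 are highest in WT normal diet, Cxcl1 and Cxcl2 are higher in the HFD libraries, and Tnf and Il18 differ little.

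The 4 comparisons between libraries were read by size. A gene was counted as higher or lower when the ratio of (CPM + 1) reached 1.5-fold, and the background is the share of 7856 genes with a mean of at least 10 CPM that did so. Of the 9 members 7 pass that filter, and Il1a and Cxcl3 do not. Comparisons share libraries, so the values for one are not independent of those for the next. Dividing by library totals left the median of all genes at -0.20, 0.03, -0.17 and -0.41 log2 in CKO over WT under HFD, CKO over WT under normal diet, HFD over normal diet in WT and HFD over normal diet in CKO. TMM scaling (edgeR's trimmed mean factors) moved those medians to 0.00, 0.01, 0.08 and 0.06. The ratios of all genes also fell with gene span, except in CKO over WT under normal diet. Genes were split into 5 equal groups by span. From the shortest to the longest the median log2 ratio went from 0.12 to -0.62, from 0.02 to 0.05, from 0.20 to -0.48 and from 0.34 to -1.16. Il1b, Tnf and the 3 chemokine genes are in the shortest group, Nlrp3 and Il18 in the middle one.

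In CKO over WT under HFD, Cxcl3 was higher and Nlrp3 lower, 1 member in each direction. Background was 4.98% of genes higher and 18.4% lower. The Cxcl3 ratio was 5.92 (exact conditional binomial interval 5.05 to 6.96) and 4.59 for CPM + 1. The Nlrp3 ratio was 0.618 (0.59 to 0.647), which became 0.718 under TMM and 0.708 relative to genes of like span, both short of the fold. Cxcl2 at 1.35 (1.34 to 1.36) and Il1b at 1.27 (1.24 to 1.3) stayed under the fold, although Cxcl2 came to 1.56 under TMM. Il1rn (1.15), Tnf (1.04), Il18 (0.997), Il1a (0.971) and Cxcl1 (0.874) lay closer to 1, and Cxcl1 came to 1.01 under TMM. The median of the members was 0.05 log2. Of the genes past the fold 21.2% were higher, against 50.4% under TMM and 56.7% relative to genes of like span.

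In CKO over WT under normal diet 0 members were higher and 1, Cxcl3, was lower, at a background of 0.446% and 0.471%. The Cxcl3 ratio was 0.35 (0.278 to 0.438), but it turned to 2.84 (CPM + 1) with the 4 cell sets described below weighted equally. Cxcl3 is also below the 10 CPM filter of that background, and of the 7 members that pass it 0 reached the fold. Nlrp3 at 0.706 (0.672 to 0.742), Il1b at 0.713 (0.697 to 0.728), Il1rn at 0.73 (0.679 to 0.784) and Il1a at 0.743 (0.603 to 0.913) were all lower in CKO without reaching 1.5-fold. Tnf stood at 0.854, Cxcl2 at 0.888, Cxcl1 at 1.05 and Il18 at 1.08. The median of the members was -0.38 log2 beside 0.03 for all genes. Here the scaling mattered less: of the genes past the fold 48.6% were higher, against 40% under TMM and 38.4% relative to genes of like span. Il1b and Cxcl2 thus had CKO over WT ratios above 1 under HFD and below 1 under normal diet. With the cell sets weighted equally, Il1b came to 0.997 under HFD and Cxcl2 to 1.06 under normal diet. The opposite directions thus did not hold under that weighting. By set, Il1b under HFD was higher in CKO in Ccr2+, Trem2+ and Lyve1+ cells. It was lower in Cd226+ cells, of which WT HFD and CKO HFD held 18 and 48. Cxcl2 under normal diet was lower in CKO in Ccr2+ and Lyve1+ cells and higher in Trem2+ and Cd226+ cells. The difference between diets was not tested, since 1 library a group allows no test.

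In HFD over normal diet in WT 1 member was higher and 3 were lower, beside 11.5% and 23.1% of all genes. Il1b was lower at 0.36 (0.353 to 0.367), Nlrp3 at 0.589 (0.566 to 0.614) and Cxcl3 at 0.212 (0.176 to 0.256). Cxcl1 was higher at 2.1 (1.99 to 2.22), and Cxcl2 stood at 1.32 (1.31 to 1.34). The Il1b ratio stayed between 0.315 and 0.474, and that of Cxcl1 between 1.82 and 2.48, in all 9 alternative settings. Nlrp3 came to 0.705 and Cxcl2 to 1.58 under TMM. Tnf (0.996), Il18 (1.08), Il1rn (0.803) and Il1a (0.734) did not reach the fold. The share of past-fold genes that were higher was 33.3%, against 62.5% under TMM and 49.6% relative to genes of like span.

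In HFD over normal diet in CKO 3 members were higher and 2 lower, beside 11.2% and 40.4% of all genes. Cxcl2 was higher at 2.01 (1.99 to 2.04), Cxcl1 at 1.74 (1.65 to 1.84) and Cxcl3 at 3.59 (2.93 to 4.44). With the cell sets weighted equally Cxcl3 turned to 0.816 (CPM + 1). Nlrp3 was lower at 0.516 (0.488 to 0.544) and Il1b at 0.641 (0.627 to 0.656), but TMM put them at 0.725 and 0.899. Tnf (1.21) and Il1rn (1.27) passed the fold only under TMM, at 1.68 and 1.76. Cxcl1 fell short at 1.37 relative to genes of like span, while Cxcl2 stayed between 1.59 and 2.82 in all 9 settings. Il18 stood at 0.994 and Il1a at 0.959. The share of past-fold genes that were higher was 21.7%, against 56.4% under TMM and 48.7% relative to genes of like span.

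**Figure D2:**
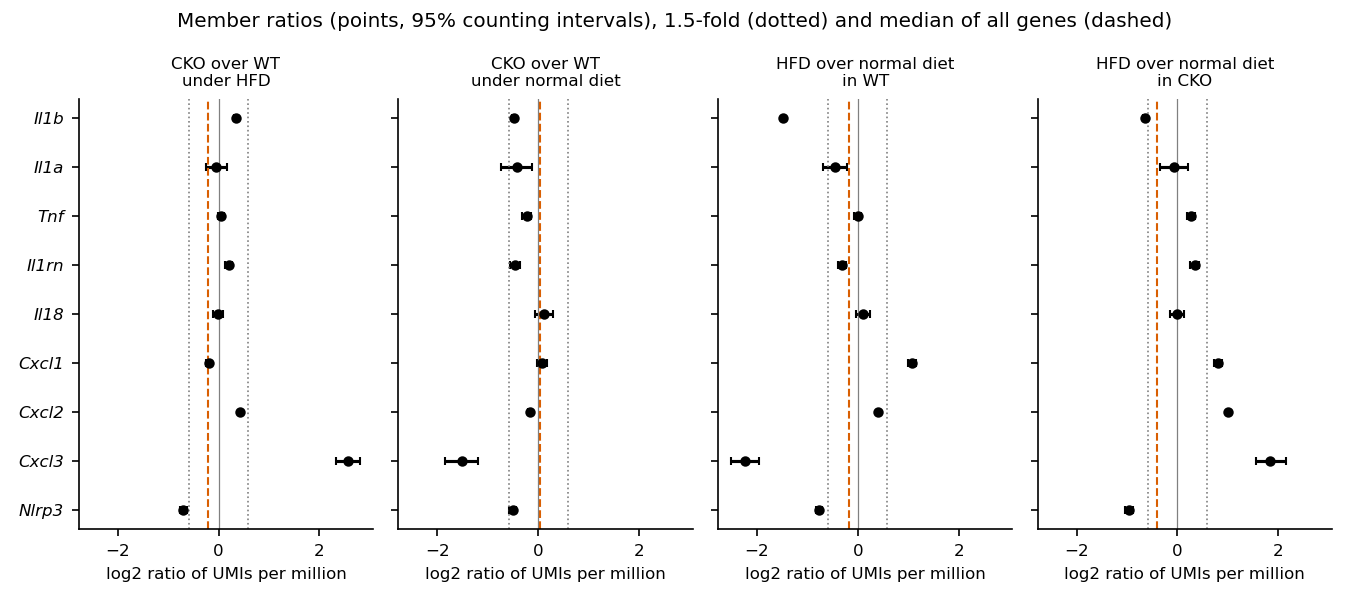
Log2 ratio of CPM between libraries for each member in the 4 comparisons (panels), as points with 95% exact conditional binomial intervals for counting error. Dotted lines mark 1.5-fold and dashed lines the median of all genes. Cxcl3 points in opposite directions under the 2 diets and in the 2 genotypes, and Il1b is lower under HFD in either genotype.

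Shares between member genes within a library do not depend on how the library is scaled. Il1b made up 13.8% (13.7 to 14), 13.1% (12.9 to 13.3), 37.1% (36.7 to 37.6) and 32.2% (31.7 to 32.6) of the UMIs of Il1b and Cxcl2 together. Both HFD libraries lay far below both normal-diet libraries, and within a diet the CKO library was the lower. Among Ccr2+ cells that share was 18.9%, 17%, 39.6% and 34.2%, among Trem2+ cells 6.5%, 6.07%, 23.6% and 20.8%, and among Lyve1+ cells 3.49%, 5.37%, 17.3% and 15.5%. The order by diet was thus the same within each of these cell sets, which are defined below. Il1rn, the antagonist, made up 16.5% (16 to 16.9), 15.2% (14.8 to 15.8), 8.22% (7.84 to 8.6) and 8.39% (7.97 to 8.83) of the UMIs of Il1rn, Il1a and Il1b. Over all cells the antagonist held the larger share of IL-1 transcripts under HFD, with overlapping intervals between the genotypes under normal diet. In Ccr2+ cells the Il1rn share was 10.7%, 10.6%, 7.26% and 6.72%, and in Trem2+ cells 34.6%, 35.4%, 18% and 13.9%. In Lyve1+ cells it was 29%, 21.9%, 8.4% and 17.3%, with overlapping intervals between the CKO libraries. Cd226+ cells did not share this order, with 7.58% (4.3 to 12.2), 18.2% (11.5 to 26.7), 13.8% (10.7 to 17.4) and 17% (13.9 to 20.5). Cxcl1 made up 7.06%, 4.69%, 4.57% and 5.38% of Cxcl1 and Cxcl2 UMIs, highest in WT HFD. Nlrp3 made up 23.9%, 13.2%, 16.1% and 16% of Nlrp3 and Il1b UMIs, again highest in WT HFD. The fall of ratios with gene span given above does not cancel in shares of genes of unlike span. Nlrp3 spans 25.4 kb and Il1rn 14.6 kb, against 6.57 kb for Il1b. The part of span in these shares was not tested.

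**Figure D3:**
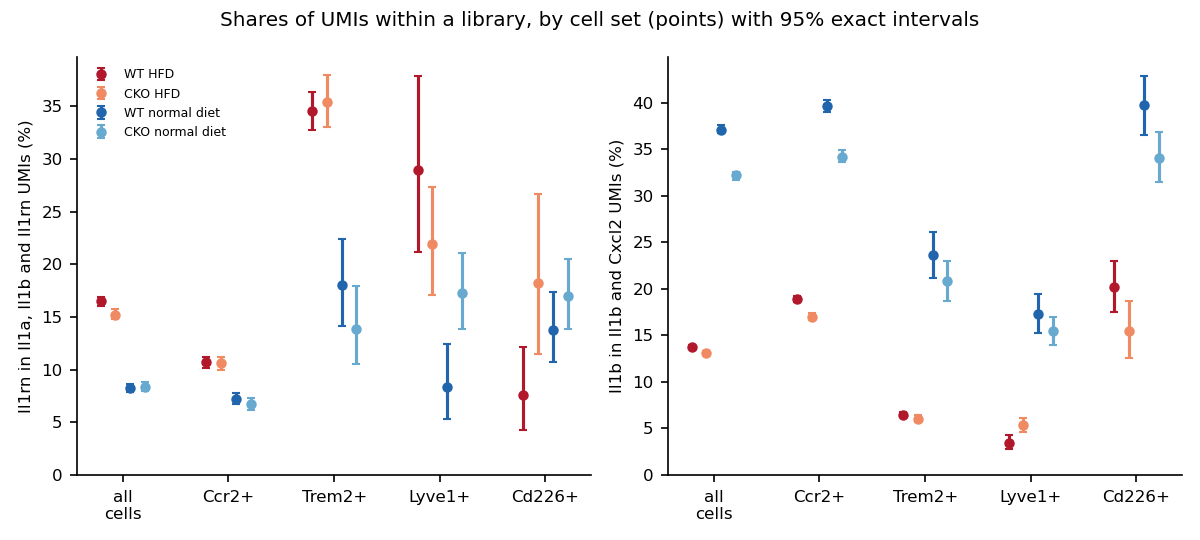
Share of Il1rn in the UMIs of Il1a, Il1b and Il1rn (left) and of Il1b in those of Il1b and Cxcl2 (right), in percent, by library over all kept cells and within the cell sets. Points are values and whiskers 95% exact Clopper-Pearson intervals for counting error. Il1b holds 13.1% to 13.8% of Il1b and Cxcl2 UMIs under HFD and 32.2% to 37.1% under normal diet.

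Cell sets were defined by detection, in thinned cells, of 1 of 4 surface markers and none of the other 3. Thinned cells held Ccr2 in 64.6%, 58.4%, 60.8% and 57.4% and Trem2 in 37.1%, 24.3%, 7.49% and 6.69%. Without thinning these shares were 84.7%, 69%, 63.2% and 60.7% for Ccr2 and 71.9%, 35.7%, 14% and 14% for Trem2. Cells of a set can thus hold UMIs of another marker before thinning, and the gap was widest in WT HFD. Ccr2 is the chemokine receptor of monocytes and cells freshly derived from them, Trem2 a lipid receptor of lipid-associated macrophages, Lyve1 a marker of perivascular resident macrophages, and Cd226 an adhesion receptor. The Ccr2+ sets held 1772, 2872, 1203 and 1242 cells, the Trem2+ sets 716, 758, 93 and 89, the Lyve1+ sets 111, 474, 209 and 412, and the Cd226+ sets 18, 48, 64 and 77. UMIs were summed by library and set, and the 16 sums were tested with edgeR's quasi-likelihood test with the library as a block, on 9792 genes with Benjamini-Hochberg adjustment. The 4 libraries, of 4 different groups, serve as replicates here, so p-values speak of a set difference shared by them. The dissociation genes summed to 14193, 14690, 14663 and 14693 CPM in Ccr2+ cells, 8784, 10435, 13663 and 13394 in Trem2+ cells, and 14371, 20200, 21973 and 18832 in Lyve1+ cells. Of those 15 genes 12 were lower in Trem2+ than in Lyve1+ cells by edgeR at an adjusted p under 0.05 (20.5% of all genes). By the same test 8 were higher in Ccr2+ than in Trem2+ cells (12.0% of all genes). Against Lyve1+ cells 6 were lower and 1 higher in Ccr2+ cells (20.4% and 18.4% of all genes). The part of the dissociation genes in the differences below was not tested.

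Il1b was higher in Ccr2+ and Cd226+ cells than in Trem2+ and Lyve1+ cells in every library. It stood at 452, 543, 959 and 713 CPM in Ccr2+ cells, 129, 192, 492 and 511 in Trem2+ cells, 48.2, 102, 250 and 197 in Lyve1+ cells, and 524, 311, 733 and 658 in Cd226+ cells. In each of the 4 libraries Ccr2+ cells lay above Trem2+ cells and these above Lyve1+ cells. Il1b was 2.2-fold higher in Ccr2+ than in Trem2+ cells (log2 1.14 ± 0.21 SE, edgeR adjusted p = 0.000563) and 5.17-fold higher than in Lyve1+ cells (log2 2.37 ± 0.22, adjusted p = 1.99e-07). Trem2+ exceeded Lyve1+ cells 2.34-fold (edgeR adjusted p = 0.000248), and Cd226+ exceeded Lyve1+ cells 4.32-fold (adjusted p = 2.24e-06). Cd226+ also exceeded Trem2+ cells 1.84-fold (edgeR adjusted p = 0.00796), a call lost when the sets were drawn from all UMIs (adjusted p = 0.228) or the thinned UMIs were summed (0.17), within 3.18e-06 to 0.33 over 12 alternatives.

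Il1rn was lowest in Lyve1+ cells, as Il1b was, but in each library it was highest in another set than Il1b. It stood at 54.8, 65.3, 75.8 and 51.9 CPM in Ccr2+ cells, 69.5, 109, 109 and 87.1 in Trem2+ cells, 21.7, 30.7, 23.8 and 42.4 in Lyve1+ cells, and 45.4, 69.9, 119 and 137 in Cd226+ cells. Trem2+ cells were above Ccr2+ cells in all 4 libraries, and Lyve1+ cells were the lowest set in all 4. The antagonist was 3.43-fold higher in Trem2+ than in Lyve1+ cells (edgeR adjusted p = 3.75e-06) and 2.13-fold higher in Ccr2+ than in Lyve1+ cells (adjusted p = 0.000327). Its level in Ccr2+ cells was below that in Trem2+ cells by log2 -0.68 ± 0.17 (edgeR adjusted p = 0.00671). That adjusted p in edgeR was 0.0856 without the CKO HFD library and 0.147 with thinned UMIs summed (log2 -0.38). Over 12 alternatives it ranged from 4.75e-05 to 0.287. Cd226+ exceeded Lyve1+ cells 3.35-fold (edgeR adjusted p = 3.98e-05).

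Tnf and Cxcl1 were higher in Trem2+ cells than in the Ccr2+ and Lyve1+ sets. Tnf stood at 81.5, 80.1, 89.8 and 74.9 CPM in Ccr2+ cells, 97.4, 121, 126 and 117 in Trem2+ cells and 70.5, 84.4, 128 and 72.4 in Lyve1+ cells. The difference of Ccr2+ from Trem2+ cells was log2 -0.56 ± 0.12 (edgeR adjusted p = 0.00195), and Trem2+ exceeded Lyve1+ cells 1.46-fold (adjusted p = 0.0028), in 3 of 4 libraries. Cxcl1 stood at 123, 110, 72.8 and 70.1 CPM in Ccr2+ cells and at 191, 195, 96.3 and 129 in Trem2+ cells, higher in the latter in all 4 libraries. Lyve1+ cells held 98.8, 93.3, 75.8 and 70.8 CPM of Cxcl1, and Cd226+ cells 200, 90.8, 17.8 and 42.2. In the fit Ccr2+ differed from Trem2+ cells by log2 -0.77 ± 0.21 (edgeR adjusted p = 0.00982), while Trem2+ cells exceeded Lyve1+ cells 1.97-fold (adjusted p = 0.002) and Cd226+ cells 2.08-fold (adjusted p = 0.00828). The Tnf call in Ccr2+ over Trem2+ cells held in every fit that left out a library, and the others did not. Without CKO HFD the edgeR adjusted p was 0.121 for Cxcl1 in Ccr2+ over Trem2+ (5.4e-06 to 0.501 over 12 alternatives), 0.0502 in Trem2+ over Lyve1+ (8.99e-10 to 0.223) and 0.0614 in Trem2+ over Cd226+ cells (5.87e-09 to 0.294). It was 0.0563 for Tnf in Trem2+ over Lyve1+ cells (0.000161 to 0.156), and without CKO normal diet 0.0612 for Cxcl1 in Trem2+ over Cd226+ cells. Fibroblast markers summed to 70, 25.2, 2.92 and 9.86 CPM in Ccr2+ cells, 5.71, 29.6, 5.25 and 5.23 in Trem2+ cells, 457, 189, 4.33 and 68.6 in Lyve1+ cells and 12.1, 0, 0 and 4.52 in Cd226+ cells. Their part in the Cxcl1 levels was not tested.

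Cxcl2 was lower in Lyve1+ cells than in Ccr2+ and Trem2+ cells. It stood at 1939, 2644, 1462 and 1371 CPM in Ccr2+ cells, 1850, 2968, 1594 and 1950 in Trem2+ cells, 1332, 1800, 1196 and 1078 in Lyve1+ cells and 2070, 1698, 1115 and 1273 in Cd226+ cells. This order held in all 4 libraries, and the lowest of the 16 levels was 1078 CPM. Relative to Lyve1+ cells Cxcl2 was 1.41-fold higher in Ccr2+ (edgeR adjusted p = 0.00499) and 1.68-fold higher in Trem2+ cells (adjusted p = 0.000169). The summed dissociation genes were highest in Lyve1+ cells. Trem2+ exceeded Cd226+ cells 1.41-fold (edgeR adjusted p = 0.0106), which was lost without CKO HFD (0.136), WT normal diet (0.0506) or CKO normal diet (0.0698), within 0.000463 to 0.419 over 12 alternatives. Il18 was called in none of the 6 pairs of sets, with 28, 27.2, 24.5 and 26.5 CPM in Ccr2+ cells and 19.2, 19.2, 28 and 26.1 in Trem2+ cells. A missed threshold does not show equal levels.

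Of the 9 members, Ccr2+ over Trem2+ cells had 1 higher and 3 lower, with 12.0% and 13.4% of all genes called in those directions. Ccr2+ over Lyve1+ cells had 3 higher and 0 lower (background 18.4% and 20.4%), and Trem2+ over Lyve1+ cells 5 higher and 0 lower (19.6% and 20.5%). Trem2+ over Cd226+ cells had 2 higher and 1 lower (10.5% and 11.0%), and Lyve1+ over Cd226+ cells 0 higher and 2 lower (14.3% and 14.3%). The members' median log2 fold was 0.18, 0.48, 0.60, 0.28 and -0.27 in these 5 pairs, beside -0.01, -0.02, -0.03, 0.03 and 0.03 for all genes. Ccr2+ over Cd226+ cells had 0 called by edgeR (0.266% of all genes higher, 0.613% lower) and 0 by DESeq2, with 2 members at an unadjusted p under 0.05 in edgeR and 3 in DESeq2. The Cd226+ sets hold as few as 18 cells, which limits every comparison with them.

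**Figure D4:**
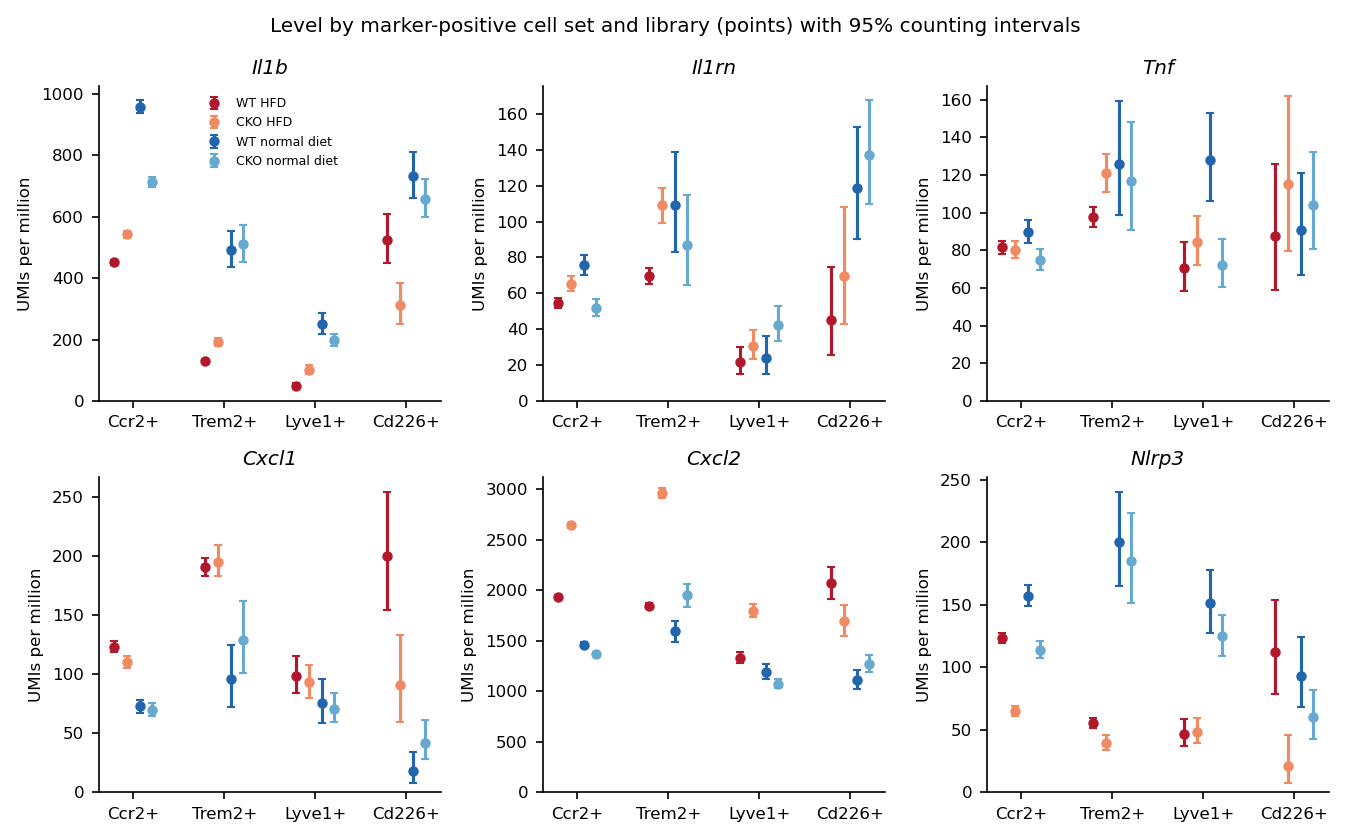
Level of 6 members in CPM by cell set, with axes from 0 and 1 point per library, for the exclusive Ccr2+, Trem2+, Lyve1+ and Cd226+ cells. Whiskers are 95% exact Poisson intervals for counting error. Il1b is higher in Ccr2+ than in Trem2+ and Lyve1+ cells in all 4 libraries, and Il1rn is lowest in Lyve1+ cells in all 4.

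The order of Ccr2+ and Trem2+ cells in Nlrp3 level differed between the diets. It stood at 123 (119 to 127) CPM in Ccr2+ against 55.6 (51.7 to 59.7) in Trem2+ cells of WT HFD, and at 64.8 (60.8 to 68.9) against 39.5 (34 to 45.6) in CKO HFD. Under normal diet the order was the other way, with 157 (149 to 166) in Ccr2+ against 200 (165 to 240) in Trem2+ cells of WT and 114 (107 to 121) against 185 (151 to 223) in CKO. Shares of cells showed 19% and 8.1% in WT HFD, 11% and 6.6% in CKO HFD, 26% and 22.6% in WT normal diet and 19% and 24.7% in CKO normal diet. In the normal-diet libraries the intervals of these shares overlapped, and in WT their order was opposite to that of the levels. In an edgeR fit with set-by-diet terms, chosen after these values were seen, the Ccr2+ over Trem2+ difference of Nlrp3 was larger under HFD by log2 1.33 ± 0.26 (adjusted p = 0.0091). It was 1 of 9 members called in that pair, where 2.44% of all genes were. The direction stayed the same in all 9 alternatives, with log2 1.08 to 1.5, and the adjusted p ranged from 7.53e-07 to 0.461. In edgeR the call was lost without the WT normal-diet library (adjusted p = 0.166) or the CKO normal-diet library (adjusted p = 0.461), each of which leaves a lone library on that diet, assumed to vary like the others. The Trem2+ sets under normal diet hold 93 and 89 cells. In the other 5 pairs 0 members were called for a difference by diet, with backgrounds of 0.235%, 0.0715%, 0.531%, 0.551% and 0.0511% and with 3, 2, 0, 5 and 3 members at an unadjusted p under 0.05. For a difference by genotype 0 members were called in any pair by the same edgeR fit, with 1, 0, 0, 1, 2 and 0 at an unadjusted p under 0.05, and 0.0102% of genes were called in Ccr2+ over Trem2+ and 0% in the other 5.

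Within libraries, the chemokine transcripts were found in the same cells. Among thinned cells with a Cxcl2 UMI, 19.5%, 16.9%, 13.8% and 15.6% also held Cxcl1, against 2.28%, 2.21%, 1.34% and 1.32% of cells without Cxcl2. Within Ccr2+ cells alone the share was 7.9, 8.02, 9.24 and 10.9 times as high. Conversely Cxcl2 was found in 93.2%, 93.1%, 90.6% and 90.8% of Cxcl1-positive cells, against 57%, 60.1%, 44.9% and 41.8% of Cxcl1-negative cells. It was in 11 of 13, 87 of 91, 14 of 14 and 12 of 13 Cxcl3-positive cells. Of Cxcl3-negative cells 61.6%, 63.5%, 48% and 45.5% held it. In WT HFD the interval with Cxcl3 (54.6% to 98.1%) held the share without Cxcl3. Tnf was in 16.4%, 15.9%, 19.2% and 15.8% of Cxcl2-positive and 7.91%, 9.7%, 9.88% and 8.56% of Cxcl2-negative cells. Il1b was higher in Cxcl2-positive cells in the HFD libraries and not in the normal-diet libraries: it was in 27.4%, 29.2%, 44.8% and 35.5% of Cxcl2-positive and 19.2%, 16.5%, 48.1% and 35.7% of Cxcl2-negative cells. That difference between diets was not tested. Within Ccr2+ cells the same ratio was 1.16, 1.35, 0.884 and 0.978. Nlrp3 was in 24.4%, 14.5%, 28.4% and 23.7% of Il1b-positive and 11.6%, 8.01%, 21.3% and 14.4% of Il1b-negative cells. Il1rn was in 11.5%, 13.6%, 10% and 7.34% of Il1b-positive and 7.44%, 6.52%, 5.55% and 4.46% of Il1b-negative cells. Of 36 pairs of members, each taken in alphabetical order, 9 were higher with intervals apart in all 4 libraries, and pairs with Il18 were in 0. The count depends on that order: for Il1b by Il1a the intervals were apart in 4 libraries, and for Il1a by Il1b in 3. Other gene pairs of like detection were not counted, so the 9 have no background beside them. Il18 was in few cells, which limits its pairs. Cells of 1 library are not replicates, so these shares are descriptions.

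**Figure D5:**
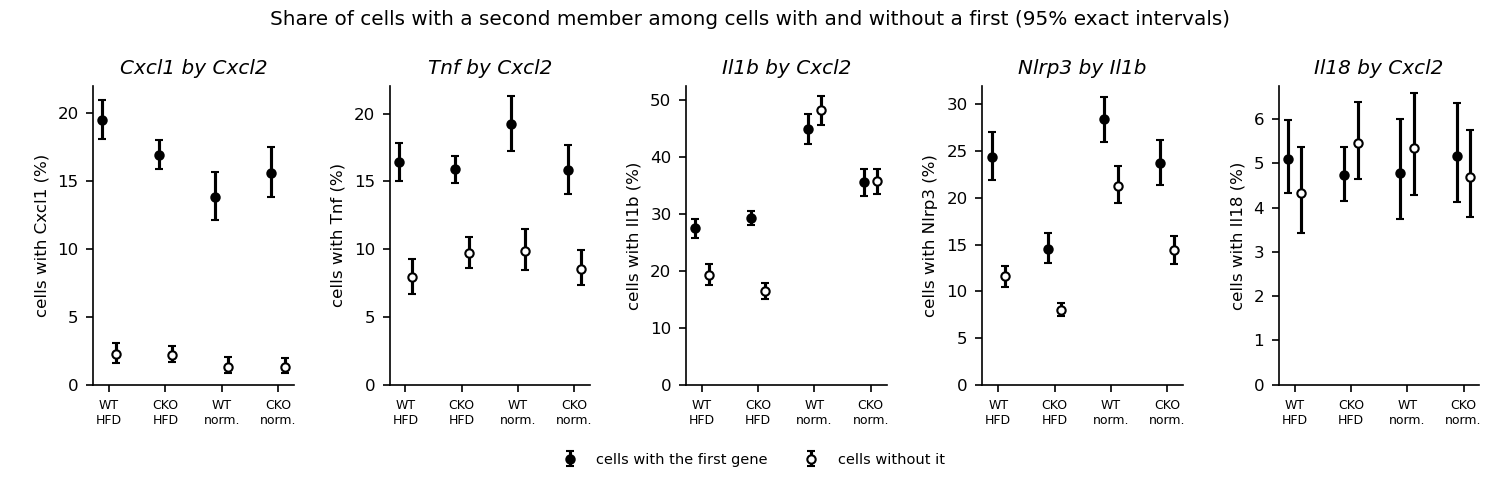
Share of thinned cells that hold a UMI of a member, in percent, among cells with (filled) and without (open) a UMI of another, by library, for 5 pairs named above the panels. Whiskers are 95% exact Clopper-Pearson intervals for counting error. Cxcl1 is found in 13.8% to 19.5% of Cxcl2-positive and in 1.32% to 2.28% of Cxcl2-negative cells.

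The Cxcl3 values rest on very few cells. The 10 cells with most Cxcl3 UMIs held 50.2%, 31.6%, 80.1% and 77.1% of all its UMIs, against 1.54% to 5.56% for Cxcl2. Without those cells Cxcl3 stood at 1.35, 10.9, 2.54 and 1.03 CPM. The ratio of (CPM + 1) was then 5.09 in CKO over WT under HFD, 0.573 under normal diet, 0.663 in HFD over normal diet in WT and 5.9 in CKO. In WT normal diet 85.5% of thinned Cxcl3 UMIs were in cells with none of the 4 set markers, where the level was 50 CPM against 3.31, 24 and 3.65 CPM in the other 3 libraries. In those 10 cells the macrophage markers summed to 9406, 4886, 2307 and 2747 CPM, below the level of all cells (9303, 10082, 4564 and 5206) in 3 of 4 libraries. Fibroblast markers were at 0 in them, and neutrophil markers summed to 33, 29.9, 107 and 20.3 CPM.

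Genes of the same pathways were counted from lists by function. Of 19 listed IL-1 family genes 15 are in the matrices and 10 could be tested between sets, and 6 were higher and 0 lower in Ccr2+ cells than in Trem2+ cells (12.0% and 13.4% of all genes) and than in Lyve1+ cells (18.4% and 20.4%). Il1r2, a decoy receptor that binds IL-1 without signalling, was 12.6-fold and 9.3-fold higher (edgeR adjusted p = 1.49e-05 and 4.9e-05). Il1rl1, the receptor of IL-33, was 3-fold and 1.52-fold higher (edgeR adjusted p = 8.83e-07 and 0.00341), at 33.7, 38, 102 and 104 CPM over whole libraries. Il18rap, a subunit of the IL-18 receptor, was 5.9-fold and 6.31-fold higher (edgeR adjusted p = 0.000217 and 0.000542). Irak2, a kinase below the IL-1 receptor, stood at 79.9, 33.6, 107 and 93.5 CPM. Between libraries, 2 of 8 measured genes of this list were lower and 0 higher in CKO over WT under HFD, 0 of 8 past the fold under normal diet, 4 lower in HFD over normal diet in WT and 6 lower in CKO. Of all genes 18.4%, 0.471%, 23.1% and 40.4% were lower in these 4 comparisons.

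Inflammasome genes were split. Of 17 tested, 3 were higher and 3 lower in Ccr2+ than in Trem2+ cells, and 3 higher and 6 lower than in Lyve1+ cells, beside the same background of all genes. Casp1, the protease that cleaves the IL-1β precursor, was at 0.745 and 0.8 times the level in Trem2+ and Lyve1+ cells (edgeR adjusted p = 0.0133 and 0.0443), opposite to Il1b. P2rx7, the ATP-gated channel upstream of NLRP3, was at 0.731 and 0.573 times (edgeR adjusted p = 0.0477 and 0.000558), and Nlrp1b, another sensor, at 1.55 and 1.51 times (adjusted p = 0.0236 and 0.023). Pycard, the adaptor protein of the inflammasome, stood at 244, 241, 184 and 209 CPM, and Txnip at 188, 254, 337 and 381 CPM. Of 16 measured between libraries, 0 were higher and 2, 0, 4 and 9 were lower in the 4 comparisons, beside 18.4%, 0.471%, 23.1% and 40.4% of all genes lower.

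Of 12 TNF pathway genes tested, 0 were called between Ccr2+ and Trem2+ cells by edgeR. Of all genes 12.0% were higher and 13.4% lower in Ccr2+ cells there. In Ccr2+ over Lyve1+ cells 2 were higher and 3 lower, beside 18.4% and 20.4% of all genes. Of 11 measured between libraries, 2 were lower in CKO over WT under HFD, 0 passed the fold under normal diet, and 1 was higher and 6 lower in HFD over normal diet in either genotype. Of all genes 11.5% were higher and 23.1% lower in WT in that comparison, and 11.2% and 40.4% in CKO. In CKO over WT under HFD 18.4% were lower, and under normal diet 0.446% were higher and 0.471% lower. Tnfaip3, which restrains NF-kappaB, stood at 203, 204, 399 and 368 CPM, and Zfp36, which destabilises Tnf and other cytokine transcripts, at 1455, 1897, 2334 and 2212 CPM, both higher in the normal-diet libraries. Of the 10 further neutrophil chemokine and receptor genes only Pf4 was expressed enough to test. Pf4, the gene of platelet factor, stood at 1166, 2618, 1522 and 1667 CPM and was at 0.349 times the Lyve1+ level in Ccr2+ cells (edgeR adjusted p = 2.62e-05) and at 0.504 times in Trem2+ cells (adjusted p = 0.00136). Its ratio between libraries passed the fold in CKO over WT under HFD (2.25) and in HFD over normal diet in CKO (1.57). Ppbp, whose product binds CXCR2 as CXCL1, CXCL2 and CXCL3 do, stood at 3.65, 3.71, 3.4 and 1.92 CPM. Of 10 other inflammatory mediators tested, 4 were higher and 0 lower in Ccr2+ than in Trem2+ cells (12.0% and 13.4% of all genes). Against Lyve1+ cells 4 were higher and 1 lower in Ccr2+ cells (18.4% and 20.4% of all genes). Il6 was 6.34-fold and 2.76-fold higher in Ccr2+ cells (edgeR adjusted p = 1.39e-05 and 0.000934), Ptgs2, the inducible cyclooxygenase, 2.34-fold and 4.4-fold (adjusted p = 0.00317 and 4.5e-05), and Clec4e, a receptor for damaged cells and mycobacterial lipid, 1.79-fold and 5.66-fold (adjusted p = 0.0193 and 8.71e-06). Il6 stood at 19, 25.8, 145 and 142 CPM over the libraries, in the same order by diet as Il1b. Cd14 stood at 354, 436, 427 and 376 CPM and Ccl4, a chemokine for monocytes and lymphocytes, at 191, 357, 178 and 144 CPM. Between libraries, 3 of these 10 were higher in CKO over WT under HFD and 3 lower under normal diet, while 5 were lower in HFD over normal diet in WT, and 4 higher and 1 lower in CKO. The matching shares of all genes were 4.98% higher under HFD, 0.471% lower under normal diet, 23.1% lower in WT, and 11.2% higher and 40.4% lower in CKO.

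The genes whose levels over the 16 sums were most like those of a member were listed for 3 members, as a description over points that share libraries. For Il1b these were Btg1 (Pearson r = 0.92), Prkcd (0.92), Lmo4 (0.90), Cdkn1a (0.90) and Sowahc (0.90), and, with each library's mean subtracted, Fgr (0.96), Cks2 (0.93), Pim1 (0.92), Sowahc (0.92) and Cd44 (0.92). Sowahc was on both lists. For Cxcl2 the lists began with Supt4a (0.90) and Mrpl30 (0.89), and after subtraction with Rassf3 (0.88) and Asph (0.85), with none shared. For Il18 the first was Ddx54 (0.76), and after subtraction Hspa4 (0.86).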

How the data were processed

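Macrophages sorted from perigonadal fat of 4 groups of mice were profiled with 10x Chromium 3′ libraries on an Illumina NovaSeq, 1 library a group, per the labels' protocols. The authors deposited unnormalised count matrices of UMIs, made with Cell Ranger 7.0.0 per the file headers, on GRCm38 per the submitters' processing notes. The sources used here do not say whether intron reads were counted. Kept cells had at least 500 UMIs, 300 genes and at most 10% mitochondrial UMIs. No doublets were removed: Scrublet (scanpy 1.11.5) called 0 in each library, so leaving out its top scores (0.8% per 1000 cells) was an alternative.

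Levels are CPM over kept cells. Shares of cells used cells thinned to 2000 UMIs. Intervals are exact, at 95% (scipy 1.17.1). Library ratios were counted by size, 1.5-fold on CPM + 1. Cell sets held at least 1 thinned UMI of 1 marker and none of the other 3. Their UMI sums were tested with edgeR 4.0.16 (R 4.3.3; TMM, filterByExpr, library as a block, adjusted p under 0.05), after a check on simulated counts. DESeq2 1.42.0 was an alternative. Gene positions came from GENCODE M21 (32158 of 32285 identifiers, 99.6%) and promoters from RefSeq, aligned with Biopython 1.88.

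The members and gene lists were chosen with earlier results of these data known. The text names all 9 members, from each pathway list the 2 genes with the highest mean CPM and up to 3 called in both Ccr2+ over Trem2+ and Ccr2+ over Lyve1+ cells, and, for Il1b, Cxcl2 and Il18, the genes with the most similar levels over the 16 sums (mean at least 50 CPM, log2 of CPM + 10). Genes of marker and dissociation lists are named beside results they touch.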

Additional observations from a re-analysis of the deposited data

Results flagged for a closer look

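Cxcl3 differed in direction between diets and between genotypes. Its CKO over WT ratio was 5.92 under HFD and 0.35 under normal diet, and its HFD over normal diet ratio was 0.212 in WT and 3.59 in CKO. Neither difference was tested, since each group is 1 library. Weighting the 4 cell sets equally turned 2 of the 4 ratios, as given below with the other settings.

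Nlrp3 was higher in Ccr2+ than in Trem2+ cells under HFD and lower under normal diet, a difference of 1.33 on the log2 scale between diets (edgeR adjusted p = 0.0091) that had the same direction in both genotypes. The fit was chosen after the values were seen. Without either normal-diet library the call was lost in edgeR (adjusted p = 0.166 and 0.461, within 7.53e-07 to 0.461 over 9 alternatives). Which other feature of the HFD and normal-diet libraries moved with it was not tested.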

How the results depend on the processing

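Between libraries, the number of members past 1.5-fold went from 2 to 1 in CKO over WT under HFD when ratios were divided by those of genes of like span, and to 3 (Cxcl3 higher, Il1a and Nlrp3 lower) with the 4 cell sets weighted equally. Under TMM it stayed at 2, but with Cxcl2 and Cxcl3 higher and 0 lower. In CKO over WT under normal diet it went from 1 to 3 with thinned UMIs, and to 2 with the mean of per-cell CPM or with the 4 cell sets weighted equally. Equal weights turned the Cxcl3 ratio to 2.84 in CKO over WT under normal diet and to 0.816 in HFD over normal diet in CKO; the cause was not tested. Leaving out the 10 top cells of each member was an alternative chosen after seeing the data.

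Between cell sets, leaving out the library block took the members called from 4 to 0 in Ccr2+ over Trem2+, from 5 to 1 in Trem2+ over Lyve1+ and from 3 to 0 in Trem2+ over Cd226+ cells. In Ccr2+ over Lyve1+ cells 5 were called, in place of 3, with no filter on low counts or with sets from all UMIs. In Ccr2+ over Cd226+ cells 2 were called with no filter or with overlapping sets and 1 with thinned sums, in place of 0. Leaving out each library in turn gave 2 to 4 members in Ccr2+ over Trem2+, 3 to 5 in Ccr2+ over Lyve1+, 0 in each case in Ccr2+ over Cd226+, 3 to 6 in Trem2+ over Lyve1+, 1 to 4 in Trem2+ over Cd226+ and 2 to 3 in Lyve1+ over Cd226+ cells. The lowest counts in Ccr2+ over Trem2+ (2) and Trem2+ over Lyve1+ cells (3) came without CKO HFD. In Trem2+ over Cd226+ cells the lowest (1) came without CKO HFD and again without CKO normal diet. The highest, 5 in Ccr2+ over Lyve1+ and 6 in Trem2+ over Lyve1+ cells, came without CKO normal diet. For the difference by diet in Ccr2+ over Trem2+ cells, 3 members were called with no filter and 2 with thinned sums, in place of 1, and 0 to 2 without a library: 0 without WT normal diet or CKO normal diet and 2 without CKO HFD. Il1b and Il1rn in Ccr2+ over Lyve1+ and in Lyve1+ over Cd226+ cells, and Il1rn in Trem2+ over Lyve1+ cells, stayed called by edgeR or DESeq2 in all 12 alternatives.

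No paired analysis was possible because each group has 1 library and 1 replicate number; the library was the block of the tests between cell sets. Shares of cells were set by depth: with 1000 or 3000 UMIs or no thinning, 104 values moved beyond their counting interval and 4 did not. Thinning left out the shallowest cells, most of them in the libraries other than WT HFD. The Cd226+ sets of 18 to 77 cells and the normal-diet Trem2+ sets of 93 and 89 cells give the least precise values, and with Il1a and Cxcl3 at 16 CPM or less, their ratios rest on few molecules.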
